A study of Caenorhabditis elegans with 2 samples.

Results

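ChIP-seq regions of the nuclear hormone receptor NHR-28 whose summits lay in the exons of protein-coding genes, away from annotated promoters, were described in Caenorhabditis elegans larvae. The summit of a region is its deposited position of highest signal. A summit was kept where it fell in a coding exon, a 5′ UTR or a 3′ UTR of a protein-coding gene and in no promoter window, which spanned the 1000 bp before and the 200 bp after any protein-coding transcription start site (TSS). There were 279 such summits among the 8745 regions of the deposited optimal set, or 3.19%. Of these, 155 lay in coding exons, 88 in 3′ UTRs and 36 in 5′ UTRs, and they belonged to 267 host genes.

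The series measured where eGFP-tagged NHR-28 was bound in whole L4 larvae by chromatin immunoprecipitation and sequencing. Both samples came from strain OP317, which carries the unc-119(ed3) III mutation and the transgene wgIs317, and males and females were pooled. They form a single group, with replicate numbers 1 and 2 that the labels call biological, and no control sample was analysed here. The tagged receptor comes from a transgene, and whole animals mix all tissues, so a region cannot be assigned to a cell type. With 1 group there was no comparison of conditions, and all differences below describe regions of the same 2 libraries without a test.

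Nuclear hormone receptors bind DNA through a zinc-finger domain and change the transcription of nearby genes, in many cases together with a small lipid-like ligand. Nematodes have a greatly enlarged family of them. Transcription factors are usually mapped to promoters and enhancers, but exons can hold binding sites too, and in the compact worm genome a 3′ UTR can border the upstream sequence of the next gene. The letters TGATAA are the core of the site bound by GATA factors, which in worms include the intestinal regulator ELT-2.

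TGATAA was looked for on either strand, up to 50 bp to each side of a summit. It was found at 124 of the 279 exonic summits, or 44.4%, against 33.3% of all optimal regions. The following stretches are shown because they place this motif in exons at members of high signal. Each has 30 bases from the RefSeq genome of build WBcel235 (ce11), read 5′ to 3′ on the strand given, with TGATAA in capitals. Coordinates are 1-based.
srx-41, coding exon, chrV:3634701-3634730, minus strand: cacacaagcgatTGATAAcacgagctctca
F57B1.6, coding exon, chrV:13212716-13212745, minus strand: ccactgcgaattTGATAAcacgtggaccag
ccdc-149, coding exon, chrX:11509684-11509713, minus strand: cgatttgtgcaaTGATAAgcaaatggcgtt
kcnl-4, coding exon, chrV:14542351-14542380, minus strand: tcaacttccgacTGATAAgagcaataagtg
nipi-3, 3′ UTR, chrX:15610587-15610616, minus strand: cccaatgtttatTGATAAttcacaggctta
C05D11.8, 3′ UTR, chrIII:6422289-6422318, plus strand: catcatatcgtaTGATAAaatttacgactc
C39B10.7, 3′ UTR, chrX:10477834-10477863, plus strand: gtgcataactacTGATAAcagatcgaatgt
T22F3.10, 5′ UTR, chrV:3610915-3610944, plus strand: ggatatgggaaaTGATAAggaaggtaatga
fbxa-14, 5′ UTR, chrIII:1323726-1323755, plus strand: caaatgccaaacTGATAAgatgtttgactt

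Other members of high signal had no TGATAA within 50 bp. These 2 stretches, on the plus strand of the same build, are centred on such summits. The first is the strongest exonic summit, and the second has its summit in a stop codon, which is in capitals. The end-1 stretch does hold AGATAAG, another GATA-type form, on the minus strand.
ccd-5, coding exon, chrX:2569193-2569222: cacttacctgtatgacaaggagacgaacta
end-1, coding exon, chrV:13986985-13987014: acaacatttctctTAAatttatcttatctt

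The signal values are those the authors deposited, on a scale that none of the sources used here states. The lists give no read counts, so depth and counting error are unknown. Exonic summits had a median signal of 58.8 and ranged from 36.3 to 390, against a median of 73.2 for the other 8466 optimal regions. The members in coding exons had a median of 59.7 and those in 3′ UTRs of 55.1. Those in 5′ UTRs had a median of 96.1, above the 75.3 of regions in promoter windows and the 69.1 of intronic regions. Of the members, 106 (37.99%) were among the 4372 optimal regions of highest signal, against 50.4% of the other regions, and 18 (6.45%) were among the 1000 strongest, against 11.6%. Split by signal into 5 bins of 1749 regions, the optimal set held 36 members in the strongest bin, then 41, 54 and 53, and 95 in the weakest.

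**Figure D1:**
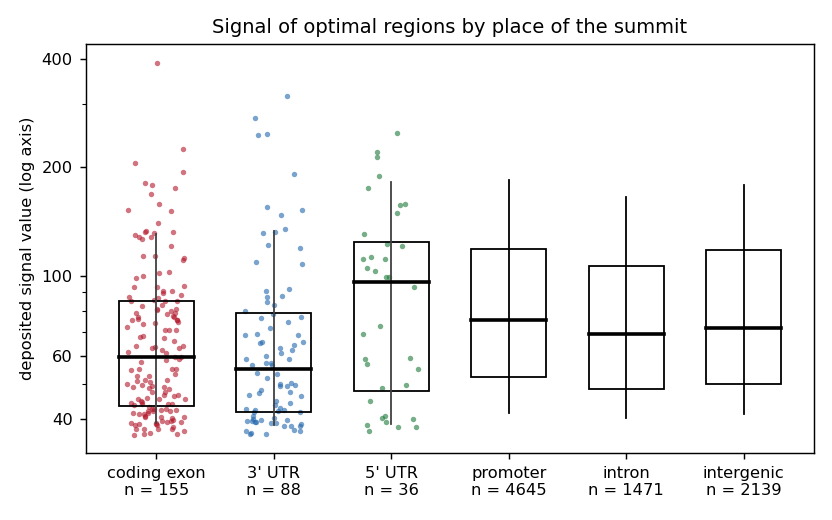
Deposited signal value (log axis) of optimal regions by the place of the summit. Points are single exonic members, boxes span the quartiles with the median as a thick line, and thin lines run from the 10th to the 90th percentile. The 5′ UTR median of 96.1 is the highest of the 6 classes drawn and the 3′ UTR median of 55.1 the lowest.

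The exonic share also moved with rank in the longer pooled list of 29697 regions, which keeps weak background regions. Among its 5000 regions of highest signal, 122 summits (2.44%) met the exonic rule. The share was 4.68% in the next 5000, then 11.1%, 19.4% and 23.5%, and 24.5% in the last bin of 4697 regions. Coding exons and UTRs outside promoter windows make up 21.6% of the genome, so the exonic share lay far below that at high signal and slightly above it at the lowest. Promoter windows went the other way, with 55.5% of the first 5000 and 26.2% of the last bin. Of the 1815 pooled regions that reached the ceiling of the deposited −log10 q value but fell below the optimal set in signal, 110 (6.06%) met the exonic rule.

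**Figure D2:**
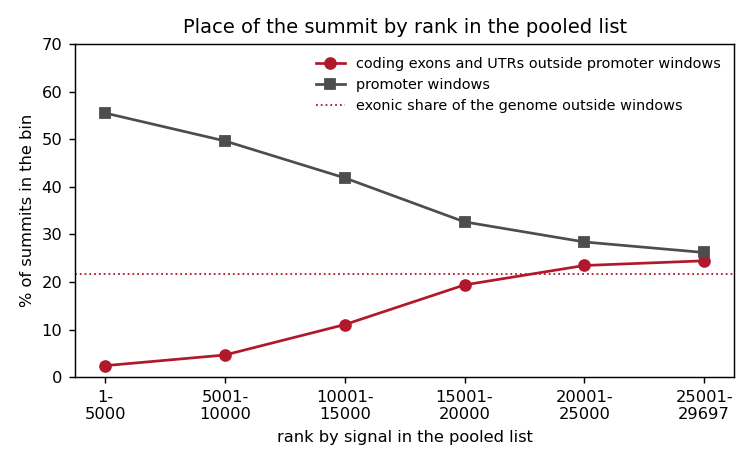
Percentage of pooled regions with an exonic summit outside promoter windows (red) and with a summit in a promoter window (grey), in bins of rank by signal, strongest at the left. The dotted line is the 21.6% of the genome that is exonic outside windows, and the exonic share crosses it between the bins with 19.4% and 23.5%.

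The strongest coding-exon member was in exon 11 of 16 of ccd-5, at chrX:2569024-2569395. It had a signal of 390 in the optimal set, 292 in replicate 1 and 105 in replicate 2. Its summit lay 3446 bp from the gene's start, and the gene had no summit in its own promoter windows. A much weaker member of the same gene, with a signal of 42.4, had its summit 1175 bp away in exon 12. The next in coding exons was hpo-34, named for a screen on sensitivity to a pore-forming toxin, with 224 in the optimal set, 158 in replicate 1 and 66.4 in replicate 2. In srx-41, a chemoreceptor gene, the member had 206 in the optimal set, 152 in replicate 1 and 59.8 in replicate 2. All of these had a higher signal value in replicate 1, as did the optimal regions as a whole, whose medians were 45.9 in replicate 1 and 28.7 in replicate 2.

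The polyketide synthase gene pks-1, which works with a peptide synthetase to make the nemamide metabolites, had a member in exon 22 of 30. It lay 15732 bp into the gene and had 108 in replicate 1 and 89.8 in replicate 2. The member of end-1, a GATA factor gene that specifies the endoderm in the embryo, was in the last of its 4 exons. Its values were 120 in replicate 1 and 52.9 in replicate 2, and its summit fell within the stop codon, 75 bp before the annotated transcript end. The potassium channel gene kcnl-4 had 91.9 in replicate 1 and 67.1 in replicate 2, and the ceramide glucosyltransferase gene cgt-1 had 82.1 and 60.04 in the same order. The patched-related gene ptr-12 had its member in exon 13, with 123 in replicate 1 and 56.1 in replicate 2, and 1575 bp upstream of the start of fbp-1. The remaining members among the 12 strongest in coding exons were in F57B1.6 (optimal signal 181), ccdc-149 (179), Y73C8C.8 (153) and C35E7.4 (152). Each of the 12 had a region in both replicate lists.

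In 3′ UTRs the strongest member was in nipi-3, which encodes a Tribbles-like pseudokinase of innate immunity. It had 314 in the optimal set, 199.8 in replicate 1 and 119 in replicate 2, and its summit was 3 bp from the transcript's end. F13H8.11 followed with 274 in the optimal set, 169 in replicate 1 and 107 in replicate 2, and adal-1, an adenosine deaminase-like gene, with 247, 132 and 118 in the same order. C05D11.8 had 2 members in 1 long 3′ UTR, with signals of 246 and 155. These lay 2861 and 1796 bp upstream of the start of atgl-1, the adipose triglyceride lipase gene, and that start was the nearest to both. K09C4.5 (152) and C39B10.7 (148) completed the group.

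The 3′ UTR member of Y55D9A.2 had 191 in the optimal set and 122 in replicate 1, and no replicate 2 region covered its summit. A replicate 2 region did overlap the optimal region itself. The nearest start, 2004 bp downstream, was that of pgp-1, a P-glycoprotein transporter gene.

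The 5′ UTR member of highest signal was in C34C12.2, with 250 in the optimal set, 131 in replicate 1 and 119 in replicate 2. Its first exon is 2829 bp long, and the summit lay 2638 bp into it. The member of din-1, which encodes a co-repressor that works with the nuclear receptor DAF-12, had 142 in replicate 1 and 83.7 in replicate 2, and its summit was intronic in 5 other isoforms. T22F3.10 had 114 and 96.6 in replicates 1 and 2, and F26F12.3 had 139 and 49.6. The F-box gene fbxa-14 had 112 in replicate 1 and 63.5 in replicate 2, with 2 TGATAA matches near its summit. For scale, the median over 5′ UTR members was 58.2 in replicate 1 and 32.1 in replicate 2. These 5 were picked for the highest optimal signal, drawn from the same libraries, so their higher values largely follow from that choice.

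Each optimal summit was next looked up in both replicate lists of 30000 regions. A region covered the summit in both lists for 268 of 279 members (96.1%), against 97.9% of all optimal regions. Of the other 11, 9 were covered in replicate 1 alone and 2 in replicate 2 alone. In 7 of these 11 some region of both lists still overlapped the optimal region, and the remaining 4 were in clec-5, Y58A7A.1, ncs-2 and cept-2. A stricter count asked for a rank within the first 8745 of both lists, which 196 members (70.3%) reached, against 78.8% of all optimal regions. The shortfall was larger in replicate 2, where 79.9% of the members had such a rank, against 86.6% of all optimal regions. In replicate 1 the shares were 89.2% and 91.4%. As the optimal set was itself drawn from these libraries, neither share is independent evidence of binding.

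Over members covered in each list, the median signal was 37.8 in replicate 1 and 23.3 in replicate 2, against 46.3 and 28.98 for the other optimal regions. The ratio of the median of members to that of the rest was 0.816 in replicate 1 and 0.805 in replicate 2. Across the 268 members in both lists, signal in the 2 replicates had a Spearman rho of 0.62 and a Pearson r of 0.65 on the log2 scale. For the 8289 other regions the values were 0.716 and 0.727. These regions share their libraries, were selected on the same signal and are not independent samples.

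**Figure D3:**
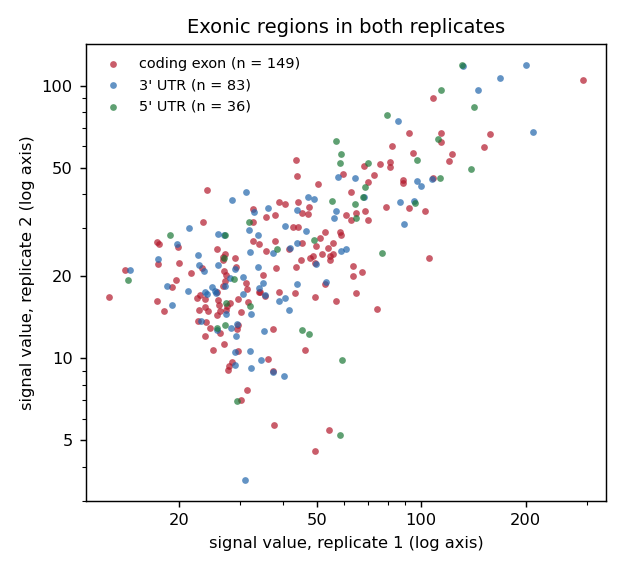
Signal values of the 268 members covered in both replicate lists, with replicate 1 on the horizontal and replicate 2 on the vertical log axis. Each point is 1 region, coloured by class, and 4 points have 5.44 or less in replicate 2.

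The members that differed most between the lists were higher in rank in replicate 1. In the 3′ UTR of mup-2, the troponin T gene of body-wall muscle, the signal was 31.1 in replicate 1 and 3.57 in replicate 2, a gap of 57.5 percentile points in rank. The coding-exon member of oac-57, an acyltransferase-family gene, had 49.4 in replicate 1 and 4.54 in replicate 2. The weaker of the 2 entries in F22D3.4 had 58.2 in replicate 1 and 5.21 in replicate 2. That entry lies next to a stronger one of the same gene, and the same replicate 1 region covered both summits. In the other direction the gaps were smaller. F11A5.15 had 13.997 in replicate 1 and 21.1 in replicate 2, igeg-1 had 17.3 and 26.8, and Y47H9C.12 had 14.4 and 20.999. Among regions covered in both lists, gaps above 50 points were found in 3 of 268 members and in 41 of 8289 other regions.

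Along the host transcript, counted from its start (0%) to its end (100%), the median member lay at 70.4%, against 59.8% for exonic bases outside promoter windows. Coding-exon members lay at a median of 57.1%, and 3′ UTR and 5′ UTR members at 95.4% and 20.99%. The last 10% of the transcript held 87 members (31.2%), of which 66 were in 3′ UTRs, against 16.3% of exonic bases. The first exon held 43 members (15.4%), against 3.46% of exonic bases, and the last exon 116 (41.6%), against 22.7%. The exonic bases were those of 1 transcript per gene, the one with the longest coding sequence. Each member was placed in a transcript whose exon held its summit, which could be a different one. Of the 43 first-exon members, 28 were 5′ UTR members, and that class fell from 36 to 20 with 1 transcript per gene. Members were more frequent than these bases at both ends of genes, but the exons compared differ. Counted per length of each class outside the windows, there were 8.19 members per Mb of coding exon, 37.5 per Mb of 3′ UTR and 85.9 per Mb of 5′ UTR. Coding exons held 1.77% of the optimal regions in 18.9% of the genome, and 3′ UTRs 1.01% in 2.34%. The 5′ UTRs held 0.41% in 0.42%, so no class held more than its share of the genome.

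**Figure D4:**
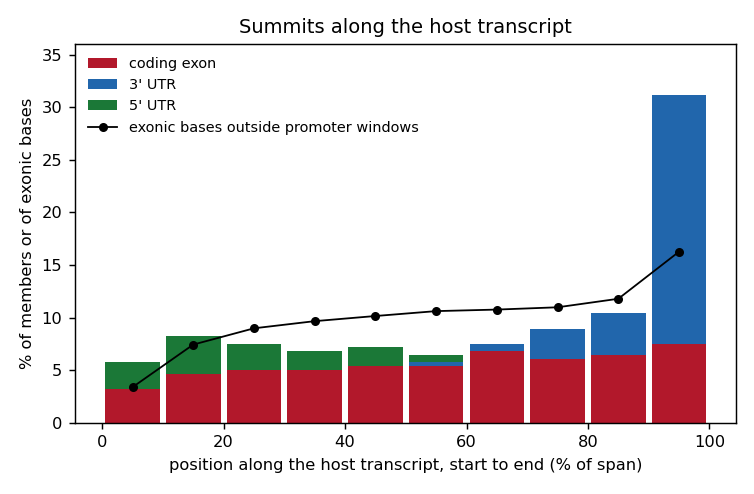
Position of summits along the host transcript in bins of 10% of its span. Stacked bars give the percentage of the 279 members in each class and the black line the percentage of exonic bases outside promoter windows. The last bar reaches 31.2%, against 16.3% of exonic bases.

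The distance to the nearest annotated start of the host gene had a median of 1483 bp, and 26 members lay over 5000 bp from it. The host's own start was the nearest for 200 members (71.7%). This held for 125 of the 155 coding-exon members and 32 of the 36 5′ UTR members, but for 43 of the 88 in 3′ UTRs. For 82 members (29.4%) the nearest start of another protein-coding gene lay within 3 kb, in the direction that places the summit upstream of it. Members with such a start but a nearer one in the other direction were not counted. No such share is given for the other optimal regions. Examples in 3′ UTRs were catp-5 (signal 135), 1526 bp upstream of vem-1, and amt-4 (91.8), 1934 bp upstream of the ammonium transporter gene amt-1. In 28 members (10.04%) the summit was intronic in at least 1 other isoform of the host gene, and 13 of these were 5′ UTR members.

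Host genes often had a summit in a promoter window as well. This was so for 148 of the 267 host genes (55.4%), against 24.8% of the 19973 protein-coding genes. The genes compared were not matched for length or for number of annotated starts, each of which adds a window. The share was 53.0% for hosts of coding-exon members, 57.0% for 3′ UTR hosts and 66.7% for 5′ UTR hosts. Another optimal summit lay within 1500 bp of 135 members (48.4%), against 40.3% of all optimal regions, and 13 members had one within 500 bp.

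There were 12 genes with 2 members each. In spl-2, a sphingosine-phosphate lyase gene, the coding-exon members had signals of 90.8 and 37.5 and summits 1189 bp apart. In smvt-1, named as a multivitamin transporter gene, they had 85.1 and 84.9 in neighbouring exons, 1347 bp apart. The heterochronic gene lin-42, a homologue of Period, had a 5′ UTR member with 44.99 and a coding-exon member with 75.6. In noca-1, which organizes microtubules outside centrosomes, the 5′ UTR summits were 202 bp apart, with 131 and 40.99. In rer-1, named for retention in the endoplasmic reticulum, a coding-exon and a 3′ UTR summit were 209 bp apart, with 74.0 and 53.5. Besides ccd-5 and C05D11.8, the other 5 genes were T28B11.1, Y43F8B.3, Y71G12B.31, F22D3.4 and F26F12.3.

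The share of members with TGATAA within 50 bp, 44.4%, had an exact 95% binomial interval of 38.5% to 50.5%, which covers counting error only. In coding exons the share was 45.2%, in 3′ UTRs 44.3% and in 5′ UTRs 41.7%. It was 32.9% over the other optimal regions, 32.2% in promoter windows and 35.3% in introns. Exonic tiles of the same length, taken every 200 bp outside promoter windows and over 500 bp from any optimal summit, held the motif in 9.45% of 105387 cases. The 3 exonic classes thus had much the same share as each other, and each was several times that of the tiles. The tiles were not split by class, and 18.9 of the 21.7 Mb of exons outside windows are coding. The UTR shares therefore have no reference of their own class. The median GC content was 39.6% around members and 40.6% in tiles. By class it was 42.6% around coding-exon members, 35.6% around 3′ UTR members and 40.6% around 5′ UTR members. No test was run over tiles.

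The matches gathered at the summit. Within 50 bp there were 62.4 matches per 100 members, against 45.4 per 100 other regions. Beyond 150 and up to 200 bp the values were close, at 14.3 and 12.9. Members with the motif had a median signal of 67.9 and members without it 55.3. The other optimal regions had the same direction, with 79.0 and 70.9. In coding exons the medians were 71.5 with and 52.6 without, and in 5′ UTRs 111 and 68.8, while in 3′ UTRs they were 52.1 and 56.5. Only 15 of the 36 5′ UTR members had the motif, so those 2 medians rest on few regions. The 3′ UTR members thus did not share the direction of the other 2 exonic classes. At least 2 matches were found at 39 members (13.98%), against 9.47% of the other regions.

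**Figure D5:**
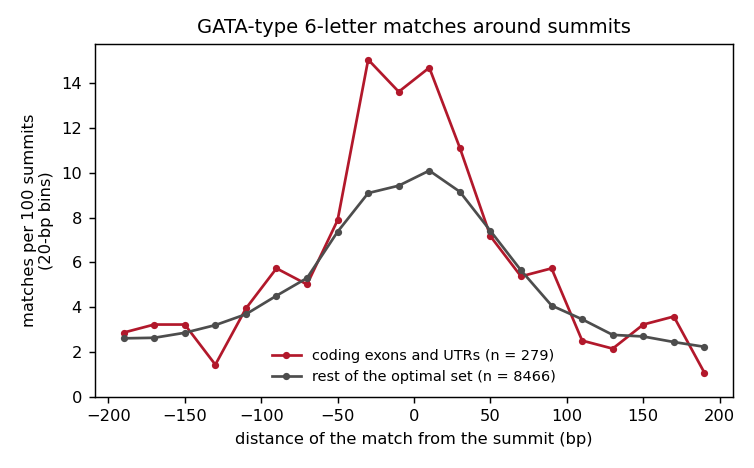
Matches to TGATAA on either strand per 100 summits, in bins of 20 bp of distance from the summit, for the 279 exonic members (red) and the 8466 other optimal regions (grey). Both lines are highest within 40 bp of the summit, and the members reach 15.1 per bin, against 10.1 for the other regions.

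The base before TGATAA was C in 40.4% of the 166 matches with both neighbours inside the 50-bp limits at members, against 34.6% at the other regions and 19.4% in the exonic tiles. The base after it was G in 40.96%, against 44.96% and 19.3%. The longer form TGATAAG, searched as CTTATCA on both strands and by its letters a subset of TGATAA, was at 61 members (21.9%), against 17.4% of the other regions and 1.88% of tiles. AGATAAG, another GATA-type form, was at 15 members (5.38%), against 4.24% and 0.73%.

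Coding sequence constrains which letters can be read in frame, because TGA and TAA are stop codons. Around the coding-exon summits there were 95 matches, and 76 lay wholly in coding sequence. Of these 76, 37 read TGATAA on the gene's sense strand and 39 on the antisense strand. None of the sense matches started at the first base of a codon, 9 started at the second and 28 at the third. The antisense matches used all 3 frames, with 7, 18 and 14 cases. An in-frame sense match cannot occur inside an annotated open reading frame, so that absence is fixed by the annotation.

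The other motifs searched gave smaller shares. GAGAGAGA was at 1 of the 155 coding-exon members and 7 of the 88 3′ UTR members, and at 5.67% of the other optimal regions. CCGCCC was at 4 members (1.43%), against 4.29% of the other regions. CACGTG, an E-box, was at 17 members (6.09%), against 4.55%. AGGTCA, an element bound by many nuclear receptors, was at 9 members (3.23%), against 4.42% of the other regions and 2.08% of tiles. In an open count of all 6-letter words, TGATAA was the word whose share at members exceeded that in tiles by most. ACTACA was at 42 members (15.1%), against 9.11% of the other regions and 4.5% of tiles.

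The gene lists were matched by symbol and are not complete, so that a gene of the same kind can be missing from them. By these symbols, 53 members (18.996%) were in genes of 14 of the 21 lists. The share of all protein-coding genes that the lists cover together was not counted, so the 18.996% is not a result about the members. The chemoreceptor list alone covers 6.60% of these genes. For scale, the 267 host genes were 1.34% of all protein-coding genes, and each list count below is to be read against that share. In detoxification, 3 of 67 UDP-glucuronosyltransferase genes were hosts, all in coding exons. These were ugt-47, with 88.8 in replicate 1 and 43.9 in replicate 2, ugt-18, with 68.5 and 50.9, and ugt-46, with 52.7 and 18.7. Of 74 cytochrome P450 genes, 4 were hosts, led by cyp-33D1 (optimal signal 83.1), cyp-43A1 (76.8) and cyp-34A7 (63.3). None of the 46 glutathione S-transferase genes was a host, which in so short a list is no result about the family. The UDP-glucuronosyltransferase members each had higher signal than the exonic median, and each gene had a promoter summit as well.

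Among 141 lipid metabolism genes there were 4 hosts. The short-chain dehydrogenase gene dhs-20 had 72.8 in replicate 1 and 47.2 in replicate 2. In dhs-28, which acts in peroxisomal β-oxidation, the values were 74.6 and 15.2, and in the acyl-CoA oxidase gene acox-1.5 they were 54.1 and 5.44. The S-adenosylmethionine synthetase gene sams-1 had a 3′ UTR member with 25.9 and 28.5. In rank percentile, replicate 1 minus replicate 2 was -0.22 points for dhs-20, 21.4 for dhs-28, 47.6 for acox-1.5 and -11.8 for sams-1. The median absolute gap over members was 4.803 points, so of these 4 only dhs-20 was below it.

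Of 274 nuclear hormone receptor genes, 7 were hosts, and 4 of these members were in 5′ UTRs. The highest were nhr-146, with 58.8 in replicate 1 and 56.2 in replicate 2, nhr-247, with 68.8 and 42.5, and nhr-201, with 31.8 and 31.6. Of 276 genes on the list of other transcription factors, 5 were hosts. They included unc-62, a Meis-type homeodomain gene (optimal signal 93.0), the forkhead gene fkh-6 (52.6) and the FOXO gene daf-16, with a 3′ UTR member of 43.1. The GATA factor gene end-1 (169), not on that list, had a higher signal than each host on it. The unc-62 summit, classed as 5′ UTR, was intronic in 17 of the 18 isoforms that span it.

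Of the 255 transporter and channel genes matched, 7 were hosts, led by the potassium channel genes kqt-2 (132), slo-2 (112) and twk-34 (80.5). The potassium channel gene kcnl-4 (158), not on that list, had a higher signal than each of them. The kinase list of 91 genes gave nipi-3 and unc-43, the calcium/calmodulin-dependent kinase II gene, with 45.6. The adhesion list of 99 genes gave ptr-12, ptr-21 (57.3) and lron-1 (53.7). Of 353 C-type lectin and immune effector genes, 5 were hosts, led by clec-140 (149) and clec-90 (108). Chemoreceptor genes, the longest list with 1319, had 5 hosts, namely srx-41, srab-12 (102), srsx-30 (78.9), sri-37 and srh-70, and F-box, MATH and BATH genes 1 host in 395, fbxa-14.

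Among tissue lists, 4 of 101 intestine markers were hosts, with low signals. The cathepsin B-like protease gene cpr-4 had 49.6, the aspartyl protease gene asp-3 had 40.4, and the transporter genes mrp-5 and pgp-2 had 38.6 and 36.4. Of 175 neuron markers, 2 were hosts, the acetylcholine receptor subunit genes acr-18 (49.0) and acr-5 (47.3). Of 271 hypodermis and cuticle genes, 2 were hosts, vab-10 (59.6) and dpy-20 (38.01). The muscle list of 50 markers gave no host, but mup-2, the troponin T gene described above, is not on it. None of 85 germline markers, 78 cytosolic ribosomal protein genes, 40 translation factors, 60 heat shock and chaperone genes or 81 histone genes was a host. As the 267 hosts were only 1.34% of all protein-coding genes, a list of this length without a host is no result about its genes.

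By chromosome, exonic members were 87 of the 1830 optimal regions on X (4.75%) and 57 of 1769 on V (3.22%). The share was 3.03% on I, 2.59% on II, 2.59% on III and 2.30% on IV. The median signal of members was highest on V, at 74.4, and lowest on X, at 53.7, so the chromosome with the most members had the lowest median.

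Members just past the edges of the promoter windows had modest signals. The nearest outside the downstream edge were in the palmitoyltransferase gene dhhc-5, 205 bp past its start with a signal of 40.6, and in tag-196, 215 bp past its start with 49.2. Just inside were a summit 188 bp past the start of dnj-24, with 36.9, and 1 at 186 bp past that of pgrn-1, with 119.6. Before the upstream edge lay members in H35N09.2, 1004 bp upstream of H35N09.1 with 46.5, and in unc-69, 1013 bp upstream of sas-7 with 44.9. Inside it lay summits 978 bp upstream of hpo-8, with 55.5, and 966 bp upstream of cdo-1, with 135. A further 521 exonic summits lay inside promoter windows and were not members. Of these, 342 were in 5′ UTRs, and their median signal was 65.8, between that of the members and that of the promoter class.

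Most members lay in sequence that occurs once. In 277 of 279 (99.3%), each 32-base word within 50 bp of the summit occurred once in the genome, against 96.9% of the other regions. A width of 350 bp was found for 215 members (77.1%), against 67.8% of the other regions. All 215 had the deposited summit within 1 bp of the middle of the region, so the summit of such a region is its midpoint and distances from it are coarse. In 112 members an edge of the exon lay within 50 bp of the summit, and 93 of these were in coding exons. Over members covered in both lists, the replicate 1 and replicate 2 summits lay a median of 35 bp apart. Whether summits that near an edge belong to the exon or to the sequence beside it is therefore uncertain.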

How the data were processed

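Both samples were ChIP-seq of eGFP-NHR-28. Per the deposited file descriptions, the authors called regions against a control for each replicate and for pooled alignments, keeping background regions for the irreproducible discovery rate procedure, and derived the optimal set. The sources used here name neither a caller and version nor a threshold. The deposited signal value is the authors' own, with no stated scale. The authors' deposited −log10 q values stop at 4.32 and could not rank regions. The lists on ce10 were not used.

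Exons came from Ensembl release 115 (WBcel235). Stop codons counted as coding exon, and a summit in several classes went to promoter, 5′ UTR, coding exon, then 3′ UTR. In each replicate list the covering region of highest signal was taken. Motifs were searched in the RefSeq genome with Python 3.11.15, pandas 2.3.3, numpy 2.4.6 and scipy 1.17.1, and the code was tested on simulated data. A summit offset beyond its region, in 1 optimal entry, was set to the last base.

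Members, motifs and gene lists were chosen with earlier results of these data known. The symbol patterns of the transcription factor and transporter lists were corrected after their counts had been seen, since they took in unrelated unc genes. Named were the 12, 8 and 5 strongest members in coding exons, 3′ UTRs and 5′ UTRs, the 3 with the largest rank difference in each direction, the 2 nearest each window edge on either side, genes with 2 members and up to 3 members per list. Names outside this rule (the members upstream of other genes, those missing in a replicate and the remaining list hosts) were chosen after their values were seen. Alternatives were other windows, midpoints, transcripts, thresholds, overlaps and motif distances, and each replicate left out.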

Additional observations from a re-analysis of the deposited data

How the results depend on the processing

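No paired analysis was possible because the series has a single group. The 279 members became 180 with windows of 2000 bp upstream and 500 bp downstream, and 106 among the 4372 regions of highest signal, which are smaller by construction. With windows of 500 and 100 bp there were 363. The 5′ UTR count of 36 was 74 with the narrow windows, 18 with the wide ones and 20 with 1 transcript per gene, and the coding-exon count of 155 was 99 with the wide windows. Taking the 8745 strongest regions of a single replicate gave 295 to 297 members. A summit in an exon of every isoform spanning it, a criterion chosen after seeing the data, left 251. The share found in both replicates, 96.1%, was 98.6% for any overlap of regions and 70.3% for a high rank in both. The ratio of median signals, 0.804, was 0.805 to 0.816 in single replicates. The TGATAA share of 44.4% was 29.7% within 25 bp and 58.8% within 100 bp, against 19.7% and 46.2% of all optimal regions, and 40% to 45.5% around the summits of single replicates. The count in gene lists stayed between 53 and 54. Depth is unknown, so no value has a counting error for its reads.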
